A study of Rattus norvegicus with 4 samples.

Results

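The 10 genes described here encode 5 secreted CCN proteins and 5 regulators of transcription by YAP and TEAD. The CCN genes are Ctgf (also written Ccn2), Cyr61 (Ccn1), Nov (Ccn3), Wisp1 (Ccn4) and Wisp2 (Ccn5). The regulators are Yap1 and Wwtr1, which encode the coactivators YAP and TAZ, the DNA-binding factors Tead1 and Tead4, and Amotl2. The rule lists the genes by name and uses no measured value, though it was written with earlier results of these data known. Each name had 1 identifier in the deposited table, so the set is 10 of 32883 genes, and 10 of 10 passed the filter on low counts that left 15257 genes to test.

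CCN proteins are secreted into the extracellular matrix, where they bind integrins and modulate growth factor signals, and Ctgf is a standard marker of fibrotic remodelling in the heart. YAP and TAZ do not bind DNA themselves. In the nucleus they join TEAD factors at genes such as Ctgf and Cyr61, and when the Hippo kinases phosphorylate them they are kept in the cytoplasm or degraded, so their activity is set mostly after translation. Angiomotins such as Amotl2 hold YAP and TAZ in the cytoplasm and at cell junctions, and Amotl2 is itself a target of YAP and TEAD.

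RNA-seq libraries, directional and depleted of rRNA, were made from ventricular cardiomyocytes cultured from Sprague-Dawley rats at postnatal day 2. One group of 2 libraries came from cells given phenylephrine (PE), an alpha-1 adrenergic agonist used to induce hypertrophic growth in culture, at 20 µM for 24 h, and 2 libraries came from untreated control cells. Both groups were plated for 1 h to remove attached non-cardiomyocytes and then grown on gelatin in high-glucose medium with 10% serum. The labels name no separate cultures for the replicates, so a p-value here reflects no more than how far these libraries scatter, and that scatter may be technical.

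Library totals ran from 45637881 to 56948370 counts. Mitochondrial-genome transcripts took 6.19% and 11.7% of the counts in control replicates 1 and 2, against 4.61% and 4.76% in PE. Levels are given as CPM, counts scaled to library size with TMM factors in edgeR. These are not corrected for gene length, so a difference in level between genes is not read as one in transcript number. The cardiomyocyte markers were present, with summed CPM of 12598 and 14454 in control and 12586 and 13333 in PE over 9 genes, Actn2 and Tnnt2 among them. Of those 9 genes, 2 rose and 7 did not pass, with a median log2 fold change of -0.26. In a fit with a replicate block, which pairs same-numbered libraries, 1 rose and none fell. DESeq2 called 3 higher and 1 lower. Fibroblast markers were present as well. Their summed CPM was 18338 and 16450 in control and 10292 and 10193 in PE, carried mostly by the collagen genes Col3a1 and Col1a1, and 2 of 9 tested markers fell and none rose (without control replicate 2, 4 fell and 2 rose; without control replicate 1, 3 fell and 1 rose; without PE replicate 2, 1 fell). With all 4 libraries, the 2 that fell were Col3a1 (log2 fold change -1.35) and Pdgfra (-0.67, named after its values were seen). Col1a1 did not pass (-0.59, edgeR adjusted p = 0.11). Another collagen marker, Col1a2, had at most 5 counts in any library (named after its values were seen). In such mixed bulk samples, fewer cells of a type and less RNA per cell cannot be told apart.

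Treatment with PE was accompanied by higher Ctgf and Cyr61 and lower Wisp2, while the other 7 genes did not pass the test. A change here means a Benjamini-Hochberg adjusted p under 0.05 over all tested genes in edgeR's quasi-likelihood test, as it does throughout. Of the 10 genes, 2 rose, 1 fell and 7 did not pass. Over all tested genes, 15.7% passed, 7.39% higher in PE and 8.3% lower. DESeq2 called the same number of the 10, against 16% of the genes it tested, and the authors' deposited table calls 16.8% of the 15231 genes to which it gives an adjusted p. The median log2 fold change was 0.01 for the 10 genes and -0.01 for all genes tested. CPM values did not overlap between the groups for 6 of the 10 genes, against 56.7% of all tested genes.

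**Figure D1:**
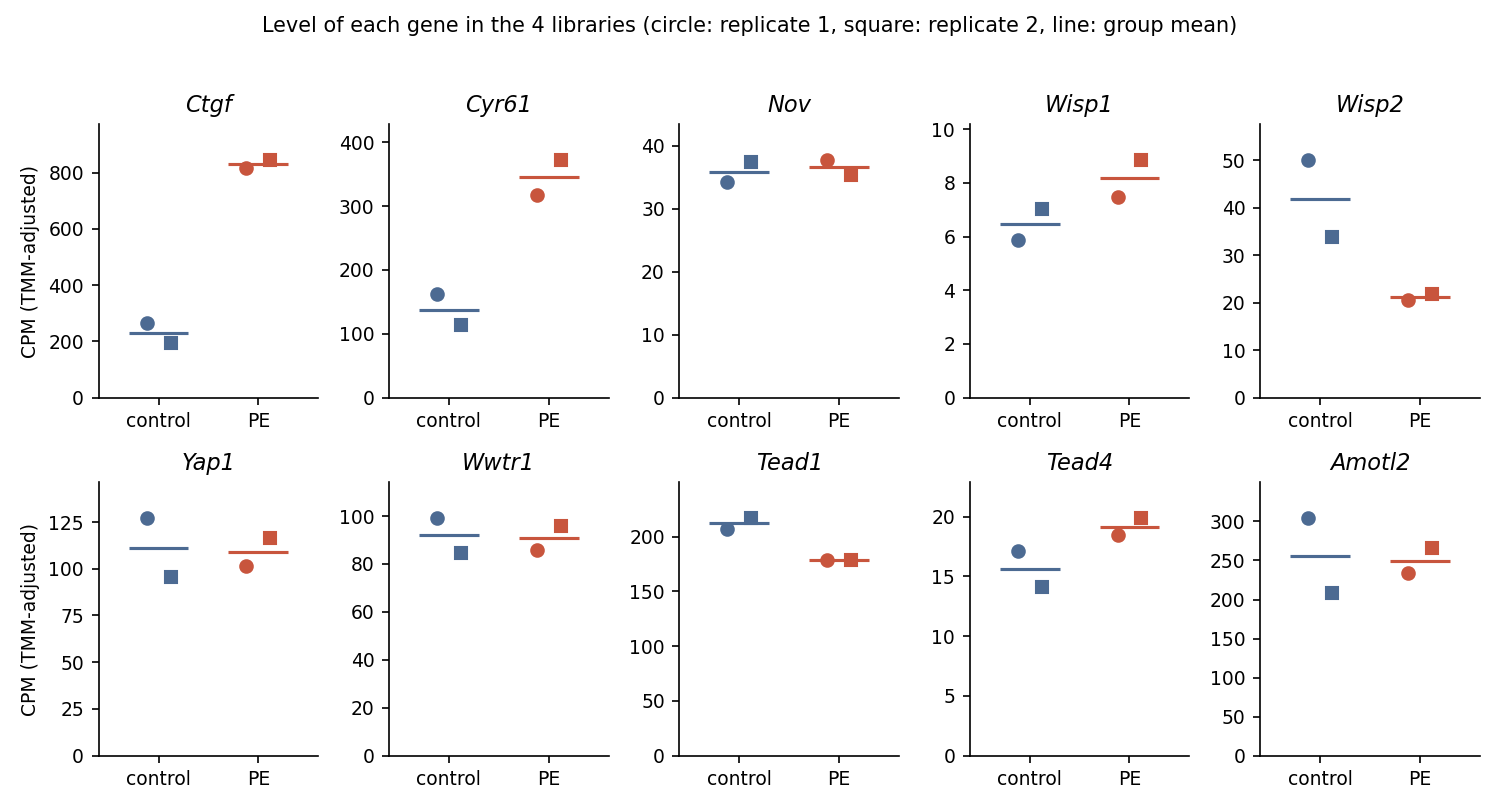
CPM (y axis, from 0) of each of the 10 genes in the 2 control (blue) and 2 PE (red) libraries, with replicate 1 as a circle, replicate 2 as a square and the group mean as a line. Both PE libraries lie far above the controls for Ctgf and Cyr61 and below them for Wisp2, and the groups overlap for Nov, Yap1, Wwtr1 and Amotl2.

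Ctgf (ENSRNOG00000015036), which encodes connective tissue growth factor, had 266 and 194 CPM in the control libraries and 817 and 845 CPM in the PE libraries. Both PE libraries were above both controls, and the PE libraries lay closer together than the controls. The mean was 230 ± 51.1 CPM in control and 831 ± 19.4 CPM in PE (SD, n = 2 each), and edgeR gave a log2 fold change of 1.85 ± 0.19 (SE; 95% confidence interval 1.42 to 2.29), a 3.61-fold rise (adjusted p = 0.000181). Ctgf ranked 264 of the 15257 tested genes from the largest rise down.

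Cyr61 (ENSRNOG00000014350), a CCN gene known as an immediate early gene of growth factor signalling, had 162 and 114 CPM in control and 318 and 372 CPM in PE. The groups again did not overlap, and the gap between them was wider than the gap within either. The log2 fold change was 1.32 ± 0.20 (interval 0.88 to 1.77), a 2.5-fold rise from 138 ± 33.8 to 345 ± 38.5 CPM (SD, n = 2 each; edgeR adjusted p = 0.00154).

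Both rises passed under each of the 11 alternatives tried. Without control replicate 1 the log2 fold change of Ctgf was 2.11 and that of Cyr61 1.61, and without control replicate 2 they were 1.64 and 1.10. The authors' deposited table gives 1.86 for Ctgf (adjusted p = 1.83e-18) and 1.33 for Cyr61 (adjusted p = 1.24e-08).

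The regions at the start sites of Ctgf and Cyr61 are shown because both genes rose together and both are textbook TEAD targets, and that of Amotl2 because it is another such target whose transcript did not pass. The sequences are those of RefSeq on the build GRCr8, matched by symbol, and run from 250 bases before to 50 bases after the annotated start. The deposited counts were made on Rnor_6.0, and no coordinate was carried between the builds. Ctgf lies at chr1:22624565-22624864 on the minus strand, Cyr61 at chr2:237225640-237225939 on the minus strand and Amotl2 at chr8:112182376-112182675 on the plus strand. Each is written 5′ to 3′ on the gene's strand, and capitals mark the TEAD hexamer CATTCC or, on the other strand, GGAATG.
Ctgf: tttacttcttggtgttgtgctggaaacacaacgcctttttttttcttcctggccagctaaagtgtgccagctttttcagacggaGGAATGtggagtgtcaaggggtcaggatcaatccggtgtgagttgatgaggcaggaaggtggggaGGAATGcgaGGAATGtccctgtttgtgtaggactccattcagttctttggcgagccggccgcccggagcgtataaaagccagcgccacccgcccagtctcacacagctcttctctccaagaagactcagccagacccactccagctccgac
Cyr61: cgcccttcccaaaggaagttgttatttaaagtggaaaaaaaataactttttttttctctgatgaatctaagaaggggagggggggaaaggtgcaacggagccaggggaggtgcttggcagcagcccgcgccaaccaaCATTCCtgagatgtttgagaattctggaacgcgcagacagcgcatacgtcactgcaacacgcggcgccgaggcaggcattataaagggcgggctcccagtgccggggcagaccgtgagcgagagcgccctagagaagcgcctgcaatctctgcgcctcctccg
Amotl2: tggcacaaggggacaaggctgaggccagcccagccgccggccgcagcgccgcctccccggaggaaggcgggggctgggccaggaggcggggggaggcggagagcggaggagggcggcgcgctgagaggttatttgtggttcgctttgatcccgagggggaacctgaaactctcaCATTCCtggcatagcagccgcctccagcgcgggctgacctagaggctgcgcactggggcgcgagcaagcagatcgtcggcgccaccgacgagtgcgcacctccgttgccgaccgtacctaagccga

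The Ctgf region held 3 matches to the TEAD hexamer, with first bases at -166, -101 and -92 from the start site and all on the reverse strand. The Cyr61 region held 1 match, at -113 on the forward strand. Amotl2 also held 1, at -76 on the forward strand, and Yap1 held 1, at -116 on the reverse strand. No match was found in the window of Wwtr1, the fifth gene with an entry in the table. Counting both strands, 14.2% of the 33469 RefSeq regions of 300 bases held at least 1 match and 0.0956% held at least 3. None of the 5 windows held the AP-1 motif TGANTCA (7.33% of all regions, both strands) or a CArG box (1.64%), the element bound by serum response factor. These are matches of letters and not measured binding.

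**Figure D2:**
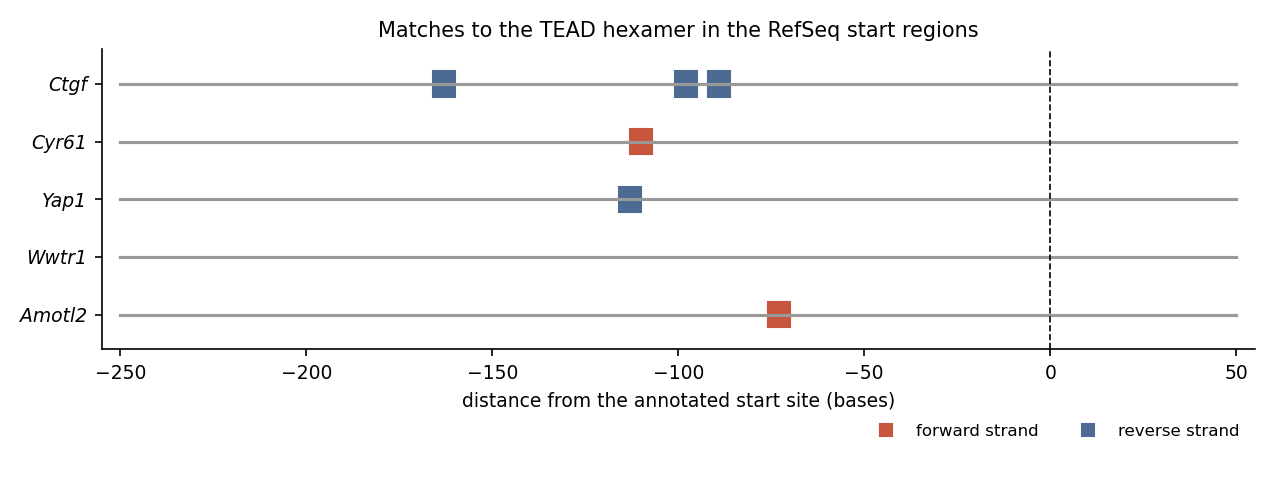
Matches to the TEAD hexamer (boxes, to scale) on the forward (red) and reverse (blue) strand of the RefSeq start regions of 5 genes, by distance from the annotated start site in bases. Ctgf has 3 matches between -166 and -87, Cyr61, Yap1 and Amotl2 have 1 each, and Wwtr1 has none.

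Wisp2 (ENSRNOG00000010666) encodes a CCN protein that lacks the C-terminal domain of the other family members and is described as an antagonist of Ctgf in the heart. It had 50.1 and 33.7 CPM in the control libraries and 20.6 and 21.9 CPM in the PE libraries. Both PE libraries were below both controls, and the controls differed from each other by more than the PE libraries did. Wisp2 fell by 0.98 ± 0.21 on the log2 scale (interval -1.44 to -0.52), from 41.9 ± 11.5 to 21.3 ± 0.886 CPM (SD, n = 2 each; edgeR adjusted p = 0.00989). The call was lost without PE replicate 1 (-0.93, edgeR adjusted p = 0.0928) and without PE replicate 2 (-1.01, edgeR adjusted p = 0.0536), and it passed with either control left out (-0.66 with replicate 1 out and -1.23 with replicate 2 out). The authors' deposited table gives -0.98 (adjusted p = 0.000284). The summed CPM of the fibroblast, mesothelial and endothelial markers was lower in PE as well. That of the smooth muscle and pericyte markers was higher, at 1066 and 894 in control and 1137 and 1291 in PE. Of those 8 genes, 2 rose, 1 fell and 5 did not pass. The 2 that rose were the only ones with a positive log2 fold change, 6 had a negative one, and the median was -0.28. Of 9 tested fibroblast markers, 5 had a positive log2 fold change, none of which passed, and the median was 0.04. The 4 with a negative value were Col3a1 (-1.35), Postn (-0.81), Pdgfra (-0.67) and Col1a1 (-0.59), of which Col3a1 and Pdgfra passed. Postn and Pdgfra were named after their values were seen. The summed CPM of the 7 mesothelial markers was 219 and 182 in control and 109 and 121 in PE, and that of the 9 endothelial markers 475 and 446 against 367 and 419. Of these, 3 mesothelial genes fell and 1 rose, and 5 endothelial genes fell and none rose, and 1 mesothelial gene fell without PE replicate 1 and 1 endothelial gene without either PE library. The part of these cell markers in the fall of Wisp2 was not tested.

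Nov and Wisp1 did not pass. Nov (ENSRNOG00000008697), a CCN gene described as opposing Ctgf in fibrosis, had 34.3 and 37.5 CPM in control and 37.7 and 35.4 CPM in PE. Its groups overlapped, and its log2 fold change of 0.03 had an interval of -0.33 to 0.39. Wisp1 (ENSRNOG00000007078), a Wnt-induced CCN gene, had 5.89 and 7.04 CPM in control and 7.48 and 8.85 CPM in PE. Both PE libraries were above both controls by a small margin, and the log2 fold change was 0.34 ± 0.21 (interval -0.13 to 0.80; edgeR adjusted p = 0.33). The sixth gene of the family, Wisp3, is not among the 10 and had 0 counts in the 4 libraries, which allows up to 3 counts in each, or at most 0.0658 CPM.

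The coactivator genes did not pass. Yap1 (ENSRNOG00000005933) had 127 and 95.5 CPM in control and 102 and 116 CPM in PE. Wwtr1 (ENSRNOG00000016617) had 99.2 and 84.7 CPM in control and 85.9 and 95.9 CPM in PE. For both genes the 2 PE libraries lay between the 2 controls. The log2 fold change was -0.03 ± 0.18 for Yap1 and -0.02 ± 0.17 for Wwtr1, with intervals of -0.44 to 0.38 and -0.39 to 0.35 (edgeR adjusted p = 0.94 and 0.964). Those bounds correspond to 0.737-fold to 1.3-fold for Yap1 and 0.765-fold to 1.28-fold for Wwtr1, so changes within them are not excluded. Their log2 fold changes were 0.20 and 0.11 with control replicate 1 left out, and -0.22 and -0.12 with control replicate 2 left out.

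Of the DNA-binding factors, Tead1 (ENSRNOG00000015488), which binds the muscle CAT element of cardiac genes, had 208 and 217 CPM in control and 179 and 178 CPM in PE. Its PE libraries were below both controls, but the log2 fold change of -0.25 ± 0.15 (interval -0.59 to 0.09) did not pass (edgeR adjusted p = 0.33). Tead4 (ENSRNOG00000005608), a family member also expressed in skeletal muscle, had 17.2 and 14.1 CPM in control and 18.5 and 19.9 CPM in PE. Its PE libraries were above both controls, at a log2 fold change of 0.29 ± 0.19 (interval -0.12 to 0.71; edgeR adjusted p = 0.344). Without control replicate 1 it was 0.45 and passed (edgeR adjusted p = 0.048), in a fit whose spread came from the PE pair alone.

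Amotl2 (ENSRNOG00000008487) had 304 and 208 CPM in control and 234 and 266 CPM in PE. The PE libraries lay between the controls, and the log2 fold change was -0.04 ± 0.20 (interval -0.48 to 0.41; edgeR adjusted p = 0.932). It was 0.27 with control replicate 1 left out and -0.28 with control replicate 2 left out, and passed in neither. Its upper bound of 0.41 was below the lower bounds of Ctgf (1.42) and Cyr61 (0.88), and the difference itself was not tested.

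**Figure D3:**
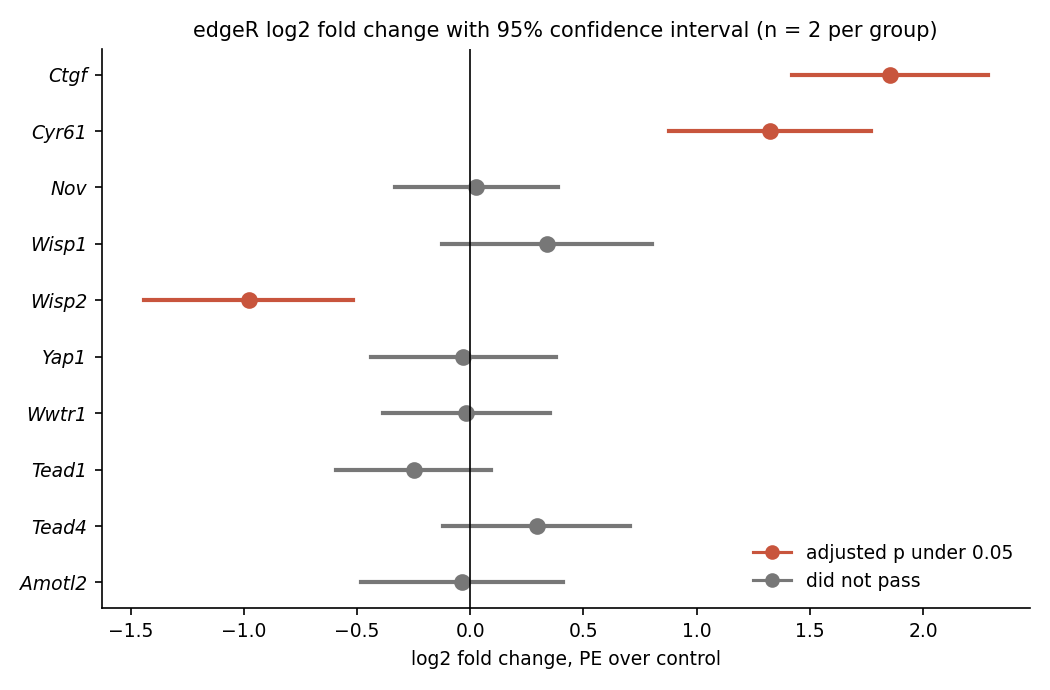
edgeR log2 fold change of PE over control (x axis) with its 95% confidence interval for each of the 10 genes, in red where the adjusted p was under 0.05. The intervals of Ctgf, Cyr61 and Wisp2 lie away from 0, and those of the 5 regulators, Nov and Wisp1 include it.

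Several of these genes differed between the 2 control libraries in the same sense. Control replicate 1 was above control replicate 2 for 7 of the 10, with a median log2 ratio of 0.35 against 0.02 over all tested genes, whose quartiles were -0.30 and 0.30. The log2 ratios were 0.57 for Wisp2, 0.55 for Amotl2, 0.51 for Cyr61, 0.46 for Ctgf and 0.41 for Yap1. Between the PE libraries the ratio of replicate 1 to replicate 2 was below 0 for 8 of the 10, with a median of -0.13 (0.0015 over all tested genes). Control replicate 2 is also the library with the largest mitochondrial share. With the mitochondrial-genome genes left out, the log2 fold changes of Ctgf, Cyr61 and Wisp2 were 1.85, 1.32 and -0.98, the same to 2 decimals. That fit drops those genes alone, so it cannot show whether control replicate 2 differed in other ways.

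**Figure D4:**
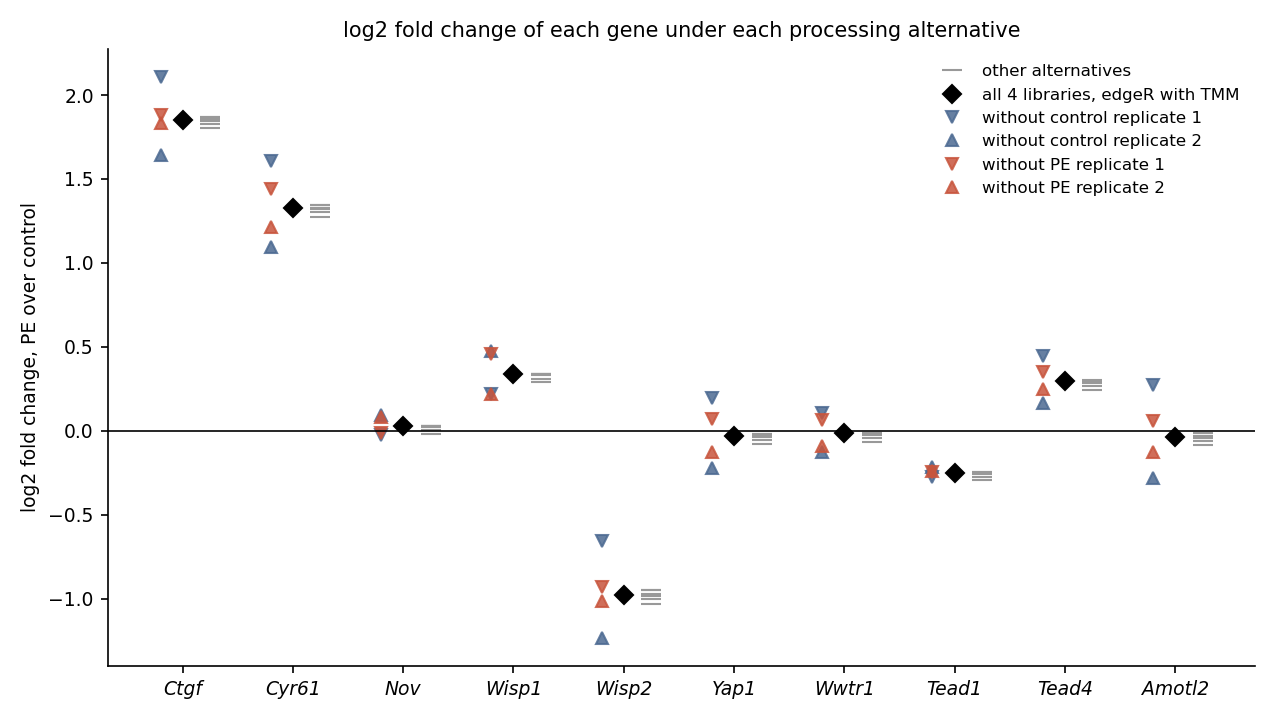
log2 fold change of PE over control (y axis) of each of the 10 genes with all 4 libraries (black diamond), with 1 library left out (triangles) and under the other alternatives (grey dashes). Ctgf and Cyr61 stay above 1 and Wisp2 below -0.6 throughout, while Yap1, Wwtr1, Nov and Amotl2 fall on both sides of 0.

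Ratios of related genes within a library were compared to set the change of one gene against that of another. The log2 ratio of Ctgf to Cyr61 counts was 0.72 and 0.77 in control and 1.36 and 1.18 in PE, a difference of 0.53. Both PE libraries were above both controls. The ratio of Wisp2 to Wisp1 went from 3.09 and 2.26 to 1.46 and 1.31, a difference of -1.29, and that of Tead4 to Tead1 from -3.60 and -3.94 to -3.27 and -3.16, a difference of 0.55. For these 3 ratios the exact permutation test gave p = 0.333, the smallest that 2 against 2 libraries allow (two-sided; 0.444 adjusted over 4 ratios). The fourth, Wwtr1 to Yap1, was -0.36 and -0.17 in control and -0.24 and -0.28 in PE. The groups overlapped and the difference was 0.0044 (exact permutation p = 1).

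The pathway around the 10 genes was taken from 9 lists, which hold those 10 as well. Ctgf, Cyr61 and Wisp2 are therefore counted among the list genes that passed. Among 100 distinct tested genes, 28 passed, 18 higher and 10 lower in PE, against 15.7%, 7.39% and 8.3% of all tested genes. Leaving out either PE library gave 12, and leaving out control replicate 1 or 2 gave 43 or 48, in fits that took the spread from 1 pair. The same fits called 1205 and 1267 of all genes without PE replicates 1 and 2, and 4708 and 4755 without control replicates 1 and 2, against 2393 with all libraries.

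**Figure D5:**
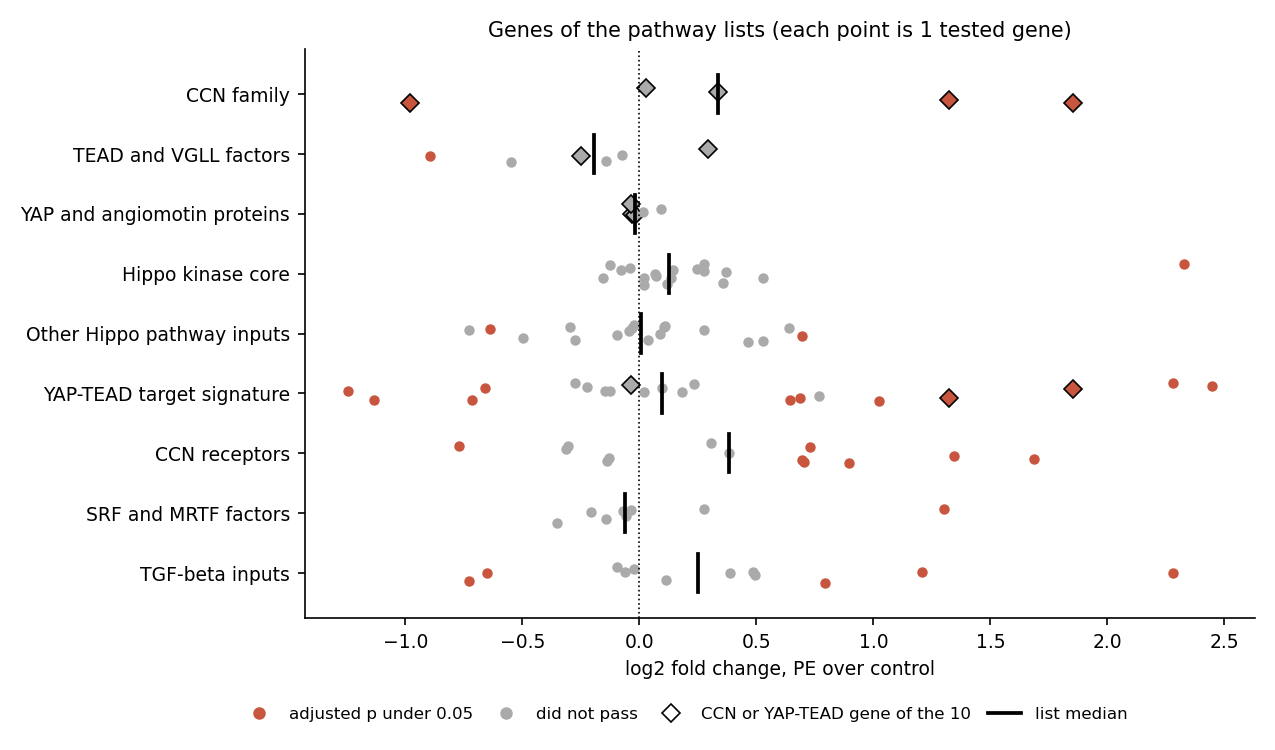
log2 fold change of PE over control (x axis) of each tested gene of the 9 pathway lists, in red where the adjusted p was under 0.05, with the list median as a bar and the genes of the set of 10 as outlined diamonds. The YAP and angiomotin genes gather near 0, while the target signature and the CCN receptors reach from below -0.7 to above 1.6.

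Of 6 tested TEAD genes and vestigial-like cofactors, 1 fell and 5 did not pass (median -0.20). Vgll4, which competes with YAP for TEAD, had 36.7 and 29.7 CPM in control and 16.8 and 18.8 CPM in PE, and its log2 fold change was -0.90 ± 0.18 (edgeR adjusted p = 0.00824). The 2 groups were well apart, but the call was lost without PE replicate 1 (-0.81, edgeR adjusted p = 0.181) or PE replicate 2 (-0.97, edgeR adjusted p = 0.0737). Vgll3, of the same cofactor family and chosen after its value was seen, stood at -0.55 (edgeR adjusted p = 0.0505). The number that fell was 2 under 5 other planned settings, DESeq2 among them, and without either control library, and 1 rose without control replicate 1. None of the 5 genes encoding YAP, TAZ and the angiomotins passed in edgeR at an unadjusted p under 0.05 or in DESeq2.

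Of 18 genes of the Hippo kinase core, 1 rose and 17 did not pass (median 0.13). The exception was Stk38l, which encodes NDR2, a kinase related to LATS. It had 45.2 and 50.1 CPM in control and 247 and 231 CPM in PE, a log2 fold change of 2.33 ± 0.17 (edgeR adjusted p = 2.24e-05). The kinase genes closest to YAP, Lats1 and Lats2, were chosen here after their values were seen and stood at -0.16 and 0.02. The number that rose was 3 and 4 without control replicates 1 and 2. Of 18 other inputs to the pathway, 1 rose and 1 fell. Slmap, a subunit of the phosphatase complex that acts on the Hippo kinases, rose by 0.70 ± 0.18 (edgeR adjusted p = 0.024). Limd1, a LIM-domain protein that binds LATS, fell by 0.64 ± 0.18 (edgeR adjusted p = 0.0406). In a fit with a replicate block, which pairs same-numbered libraries, no gene of the list passed. Both calls were lost without either PE library, where the adjusted p ran from 0.194 to 0.398 in edgeR, and 3 genes of the list rose without either control library. Without control replicate 2, 5 genes of the list fell.

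The YAP-TEAD target signature, to which Ctgf, Cyr61 and Amotl2 belong, changed in both directions. Of its 21 tested genes, 7 rose, 4 fell and 10 did not pass, and of the 18 that are not in the set of 10, 5 rose and 4 fell, with a median log2 fold change of 0.06. The largest rises were those of Nt5e, the ectonucleotidase CD73, from 16.8 and 15.8 to 94.8 and 82.9 CPM, and of Tgfb2, a TGF-beta ligand, from 128 and 131 to 636 and 618 CPM. Their log2 fold changes of 2.44 ± 0.17 and 2.28 ± 0.16 were above that of Ctgf (edgeR adjusted p = 2.24e-05 and 2.32e-05). The members that fell, chosen after their values were seen, were Nuak2 (-1.25), F3 (-1.13), Ccdc80 (-0.71) and Igfbp3 (-0.66). F3 encodes tissue factor and Igfbp3 a binding protein of insulin-like growth factors. Leaving out PE replicate 1 left 2 that fell, leaving out PE replicate 2 left 1, and either way 5 rose.

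CCN proteins signal through integrins, and 6 of the 13 tested receptor genes rose and 1 fell (median 0.38). Itga6, a laminin-binding alpha subunit that also binds Cyr61 and Ctgf, had 57.1 and 55.4 CPM in control and 179 and 184 CPM in PE. The PE libraries were far above the controls, at a log2 fold change of 1.69 ± 0.16 (edgeR adjusted p = 9.88e-05). Itgb3, the beta subunit of the vitronectin receptor, rose by 1.34 ± 0.19 and Itgb1, the common beta subunit, by 0.90 ± 0.17 (edgeR adjusted p = 0.000885 and 0.00591), though the call of Itgb1 was lost without PE replicate 1 (edgeR adjusted p = 0.149). Itgb2, the leukocyte beta subunit, fell by 0.77 ± 0.17 on the log2 scale (edgeR adjusted p = 0.0108). Macrophage markers were lower too, with summed CPM of 319 and 362 in control and 238 and 212 in PE over 10 genes, of which 3 fell and none rose (0 fell without either PE library, and 6 and 5 without control replicates 1 and 2). Their part in the fall of Itgb2 was not tested. Leaving out PE replicate 1 left 2 receptor genes that rose, and leaving out PE replicate 2 left 3. None fell in either fit, and 4 fell without control replicate 2.

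Ctgf and Cyr61 also respond to serum response factor and to TGF-beta. Of 8 genes of the serum response factor list, 1 rose, Myocd, the cardiac and smooth muscle coactivator myocardin, from 123 and 116 to 275 and 313 CPM (log2 fold change 1.30 ± 0.16, edgeR adjusted p = 0.00049). The PE libraries were far above the controls, and 3 genes of the list rose and 1 fell without control replicate 2, while 2 fell without control replicate 1. Of 12 genes of TGF-beta signalling, 3 rose, 2 fell and 7 did not pass (median 0.25). Besides Tgfb2, Skil, a SMAD repressor, rose by 0.79 ± 0.20 on the log2 scale. Tgfbr3, the betaglycan co-receptor, fell by 0.73 ± 0.16 on the log2 scale (edgeR adjusted p = 0.0212 for Skil and 0.0122 for Tgfbr3). The calls of Skil and Tgfbr3 were lost without either PE library (edgeR adjusted p from 0.126 to 0.35), and 6 genes of the list rose without control replicate 1.

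The genes with the profile most like that of Ctgf over the 4 libraries were Car12, Dnah17 and Gatm. Likeness was the Euclidean distance between log2 CPM values centred on their mean over the 4 libraries, and those distances were 0.0482, 0.0557 and 0.109 among 11164 candidate genes. For Wisp2 they were Twf2, Ptp4a3 and Nudt8, at 0.0611, 0.0729 and 0.0766. With 4 libraries in 2 groups, a short distance says only that a gene had a similar fold change and a similar gap between the controls.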

How the data were processed

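RNA-seq of 4 libraries was analysed, 2 control and 2 PE, grouped by the labels. Per the submitters' processing notes, the tools were cutadapt 2.0, STAR 2.4.2a and featureCounts 1.6.4 on Rnor_6.0. Options, strand included: not given in the sources used here, so genes that overlap or share sequence are uncertain. The authors deposited whole-number counts per gene. The authors' deposited comparison table holds a mean signal, a log2 fold change with its error, a test score and p-values per gene, per the file headers; its signal and score were not used. From the counts, edgeR 4.0.16 (R 4.3.3) gave TMM factors (0.982 to 1.03), dropped low genes with filterByExpr (minimum count 10, minimum total 15) and tested PE against control by quasi-likelihood with Benjamini-Hochberg adjustment over 15257 genes. Benjamini-Hochberg adjusted p under 0.05 was the threshold. DESeq2 1.42.0 was an alternative. The fit had 2 residual degrees of freedom. Error bars are SD or SE as stated. Scripts were tested on simulated data.

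The 10 genes and all lists were chosen with earlier results of these data known. Named besides them were up to 4 genes per pathway list past the threshold with the largest changes (the 2 most abundant where none passed), the 2 most abundant of a marker list, and the 3 nearest profiles of the passing gene with the largest rise and of that with the largest fall. Genes outside this rule are marked as such where named. Counts of 0 allow 3 counts per library, which covers counting error only. Same-numbered replicates have no shared source in the labels, and the correlation of their deviations was -0.229. The symbols Vgll1, Wtip, Foxf2, Itgam, Mrtfb, Ttn, Pecam1 and Muc16 were not analysed here. One gene that the rule names is not reported here.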

Additional observations from a re-analysis of the deposited data

How the results depend on the processing

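Ctgf and Cyr61 kept their direction and their call in each alternative run, with log2 fold changes of 1.64 to 2.11 and 1.10 to 1.61 when 1 library was left out. Wisp2 ran from -1.23 to -0.66 and lost its call without either PE library (-0.93 and -1.01). Wisp1 ran from 0.22 to 0.47, Tead1 from -0.28 to -0.21 and Tead4 from 0.16 to 0.45, passing at 0.45 without control replicate 1. Around 0, Nov ran from -0.028 to 0.094 (-0.018 with library sizes alone), Yap1 from -0.22 to 0.20, Wwtr1 from -0.12 to 0.11 and Amotl2 from -0.28 to 0.27. Yap1, Wwtr1 and Amotl2 changed sign without control replicate 1 (0.20, 0.11 and 0.27) and without PE replicate 1 (0.07, 0.07 and 0.06), and Nov in the same fits (-0.028 and -0.014). The difference of the log2 ratio of Wwtr1 to Yap1 also changed sign there (-0.088 and -0.015) and ran up to 0.097. The number of genes past the threshold, 2393 of all tested and 28 of the lists, ran from 1205 to 4755 and from 12 to 48 when 1 library was left out, since the spread then rests on 1 pair and the lone sample is assumed to vary like the other group. With a replicate block, which pairs same-numbered libraries, 1964 genes passed, 3 of the 10 and 20 of the lists; the numbers are not shown to pair the samples. The crossed pairing, chosen after seeing the data, gave 4677 of all genes and 3 of the 10. The cause of the other differences was not tested. The split of higher to lower calls was 1127 to 1266, and 1033 to 1466 with library sizes alone. With 2 libraries a group, the intervals of the 7 of these 10 genes that did not pass reach 0.80 on the log2 scale, for Wisp1.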
